A study of Mus musculus with 6 samples.

Results

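The genes that build the slow muscle fibre were followed through a map of acetylated lysine 27 of histone H3 (H3K27ac), a mark of active promoters and enhancers, in mouse quadriceps. The set held 10 genes, named by their protein products: the slow troponins Tnni1, Tnnt1 and Tnnc1, the myosin light chains Myl2 and Myl3, the myosin heavy chains Myh7 and Myh7b, the calcium pump Atp2a2, the calcium store protein Casq2, and the tropomyosin Tpm3. Every peak listed under one of these names was taken, whatever its size, out of 15642 gene names in the 2 peak lists. This gave 14 of the 46988 peaks of control mice and 14 of the 40721 peaks of detrained mice, spread over 7 of the 10 genes.

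Quadriceps of male wild-type C57BL/6 mice, 8 weeks old at the start and named C57BL/6J in the study's methods, was compared between 2 groups that share strain, sex and genotype. Control mice were sedentary, without a wheel, and detrained mice ran voluntarily on a wheel for 4 weeks and then rested for 72 hours before the muscle was taken. Each group had 2 H3K27ac libraries, each from a single quadriceps of 1 animal, and 1 input library of DNA without immunoprecipitation. The labels of the input libraries give the strains C57BL/7 and C57BL/8 in place of C57BL/6.

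Slow fibres contract slowly, burn fat and sugar in mitochondria and resist fatigue. In the sarcomere, calcium binds troponin C (Tnnc1 in slow fibre and heart), which with the inhibitory subunit (Tnni1) and the tropomyosin-binding subunit (Tnnt1) moves tropomyosin off actin, so that myosin (Myh7 with the light chains Myl2 and Myl3) can pull. Calcium is returned to the sarcoplasmic reticulum by a pump (Atp2a2 in slow fibre and heart, Atp2a1 in fast fibre) and held there by calsequestrin (Casq2, or Casq1 in fast fibre). Mouse quadriceps is made mostly of fast fibres, in which the fast relatives of these proteins are used.

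The 4 H3K27ac libraries held 20805019 to 22400894 tags, and the inputs 10812470 in control and 21298438 in detrained mice. Between 44.7% and 49.4% of the tags of an H3K27ac library lay in the peaks of its list. Start sites of 7 of 7 skeletal muscle marker genes (Acta1, Ckm, Des, Ttn, Myod1, Tnnt3 and Mylpf) lay in a peak of both lists, and those of 0 of 4 heart marker genes (Myh6, Nppa, Tnni3 and Tnnt2) in either. Start sites of all 4 endothelial, all 3 fibroblast and both satellite cell markers lay in peaks of both lists, and those of 1 of 4 macrophage markers in control and 3 of 4 in detrained mice. Tags summed over the fibroblast marker peaks were 1519 to 1623 per 10000000 in the control and 2035 to 2115 in the detrained libraries, those of macrophage markers 133 to 168 and 196 to 229, and those of satellite cell markers 173 to 179 and 227 to 246. Per kb of listed peak the pooled tags were 32.9 in control and 33.5 in detrained mice for fibroblast markers, 21.7 and 20.5 for macrophage markers and 17.7 and 16.6 for satellite cell markers. The ranges of the endothelial markers (2150 to 2506 and 2204 to 2790) and of the single heart marker with a listed peak, Tnni3 (40.2 to 58.7 and 44.0 to 49.0), overlapped. The part of these cell types in the values below was not tested.

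The sequences just upstream of member start sites were laid side by side, to show starts that lay in a peak of both lists beside starts that lay in none. Each run holds the 250 bases before the start site, 5′ to 3′ on the strand of the gene, from RefSeq on GRCm38.p6, the assembly of mm10. The first pair lay inside peaks and the other 4 did not. Capitals mark matches, on either strand, to 6 motifs. These were the motif of the muscle factor MEF2 (CTANNNNTA), the E-box bound by myogenic factors such as MyoD (CANNTG), and the MCAT element of the TEAD factors, spelled CATTCC. The others were the site of estrogen-related receptors or ERR, spelled AAGGTCA, the core of the calcium-dependent factor NFAT, spelled GGAAAA, and the TATA box, spelled TATAAA. Matches of different motifs may overlap.
Casq2 (chr3:102086165-102086414, + strand, start in peaks): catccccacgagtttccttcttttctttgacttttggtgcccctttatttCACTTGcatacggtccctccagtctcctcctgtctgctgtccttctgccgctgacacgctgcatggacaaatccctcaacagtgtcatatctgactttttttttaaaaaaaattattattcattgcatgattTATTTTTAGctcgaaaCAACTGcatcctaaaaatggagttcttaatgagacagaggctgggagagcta
Tpm3, internal start (chr3:90079271-90079520, + strand, start in peaks): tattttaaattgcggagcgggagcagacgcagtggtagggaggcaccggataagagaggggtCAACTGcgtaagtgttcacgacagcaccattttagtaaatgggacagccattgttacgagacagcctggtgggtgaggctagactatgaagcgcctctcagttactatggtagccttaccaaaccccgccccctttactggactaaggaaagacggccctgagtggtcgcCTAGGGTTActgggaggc
Tpm3, upstream start (chr3:90072401-90072650, + strand, no peak): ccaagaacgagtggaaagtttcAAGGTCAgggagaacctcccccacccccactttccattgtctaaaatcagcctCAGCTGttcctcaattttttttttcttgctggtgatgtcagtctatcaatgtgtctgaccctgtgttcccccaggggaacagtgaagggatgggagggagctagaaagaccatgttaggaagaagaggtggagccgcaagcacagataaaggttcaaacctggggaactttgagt
Tnni1, upstream start (chr1:135799171-135799420, + strand, no peak): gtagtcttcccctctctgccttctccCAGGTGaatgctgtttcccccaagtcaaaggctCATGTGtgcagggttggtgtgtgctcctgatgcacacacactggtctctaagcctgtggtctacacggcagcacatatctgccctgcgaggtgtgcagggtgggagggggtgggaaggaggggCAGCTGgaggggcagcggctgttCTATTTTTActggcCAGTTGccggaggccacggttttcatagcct
Tnnc1 (chr14:31208062-31208311, + strand, no peak): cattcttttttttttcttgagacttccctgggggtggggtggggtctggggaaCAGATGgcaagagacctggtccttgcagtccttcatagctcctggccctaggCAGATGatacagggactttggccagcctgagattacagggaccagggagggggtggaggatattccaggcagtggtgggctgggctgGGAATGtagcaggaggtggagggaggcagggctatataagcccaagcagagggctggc
Myh7, upstream start (chr14:54994627-54994876, − strand, no peak): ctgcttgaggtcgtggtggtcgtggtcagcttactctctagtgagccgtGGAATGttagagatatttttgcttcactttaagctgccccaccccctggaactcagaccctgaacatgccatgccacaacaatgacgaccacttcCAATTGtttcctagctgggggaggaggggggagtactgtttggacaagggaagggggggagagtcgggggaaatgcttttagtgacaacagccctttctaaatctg

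Sequences of the member starts differed in base content as well as in motifs. The window of the internal Tpm3 start held 11 CpG dinucleotides and that of the upstream Tpm3 start 2. That of Casq2 held 5, within the range of 0 to 7 over the 11 member windows whose start lay in no peak, and the median over all 32851 start windows of this length was 6. A MEF2 match lay 68 bases before the Casq2 start, 18 bases before the internal Tpm3 start and 45 bases before the upstream Tnni1 start. Of the 16 curated member starts, 13 had a window in the sequences used here (all but Atp2a2 and 2 starts of Myl2, among them the one to which the lists assign it), and 6 of these had a MEF2 match, against 19.0% of all start windows. All 13 had an E-box, against 66.2% of all, and 3 had an MCAT match, against 12.6%. An ERR match lay in 2 of the 13, against 4.08% of all, a TATA box in 2, against 12.4%, and an NFAT match in 0, against 20.4%. Several genes had more than 1 start, and windows of neighbouring starts share bases, so the 13 are not independent.

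A second pair of sequences belongs to the only members with a peak in a single list. Each is the central 300 bases of that peak, on the strand of the gene and with the same capitals.
Tnni1, control list only (chr1:135794435-135794734, + strand): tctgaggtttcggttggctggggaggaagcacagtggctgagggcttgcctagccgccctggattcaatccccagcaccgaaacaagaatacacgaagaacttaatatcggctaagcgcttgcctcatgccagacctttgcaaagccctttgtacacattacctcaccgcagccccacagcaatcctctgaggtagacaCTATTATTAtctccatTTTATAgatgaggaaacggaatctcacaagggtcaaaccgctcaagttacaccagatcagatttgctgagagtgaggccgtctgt
Tnnt1, detrained list only (chr7:4511715-4512014, − strand): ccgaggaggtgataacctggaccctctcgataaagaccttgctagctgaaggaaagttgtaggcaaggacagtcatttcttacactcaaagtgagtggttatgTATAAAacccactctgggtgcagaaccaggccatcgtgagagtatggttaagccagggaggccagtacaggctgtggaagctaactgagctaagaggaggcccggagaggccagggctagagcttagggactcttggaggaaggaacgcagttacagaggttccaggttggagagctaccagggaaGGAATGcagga

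The Tnni1 run held 1 MEF2 match and 1 TATA box match, and the Tnnt1 run held 1 MCAT and 1 TATA box match. Neither held an E-box, a motif found in 77.6% of the central 300 bases of control peaks and 76.9% of those of detrained peaks. Over all member peaks, 12 of 14 centres held an E-box in either list. A MEF2 match lay in 5 of 14 control centres and 0 of 14 detrained centres, against 25.7% and 25.0% of all peaks. Each list set its own peak edges, so the control and detrained windows of a gene do not hold the same bases.

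Only 3 of the 10 slow-fibre genes, Atp2a2, Casq2 and Tpm3, had a start site inside an H3K27ac peak, and they were the same genes in both lists. Among all protein-coding genes with a curated start site, 52.7% had one inside a control peak and 52.5% inside a detrained peak. Of 12 genes of the fast fibre (Tnni2, Tnnt3, Tnnc2, Mylpf, Myl1, Myh4, Myh1, Myh2, Atp2a1, Casq1, Tpm1 and the calcium buffer Pvalb), 11 had a start site in a peak of each list. In bulk muscle, fewer fibres of a type and less acetylation per nucleus cannot be told apart. How a start site was judged rests on the peaks of the 2 lists, in which the lowest entry held 5.66 tags per 10000000 in control and 4.40 in detrained mice, and a weaker signal was not analysed here.

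Myh7, the slow myosin heavy chain, and Myh7b, a close relative of it, had no peak under their names in either list and no peak of any name within their gene bodies. The nearest peak edge lay 19.4 kb from the upstream Myh7 start in control and 19.6 kb in detrained mice, in a peak listed under Ngdn, a gene active in many tissues. That Ngdn peak measured 70.5 and 73.1 tags per kb per 10000000 tags in C2 and C3, as the control list calls its libraries, and 71.2 and 67.0 in the detrained libraries Ex1 and Ex2. For Myh7b the nearest edge lay 17.6 kb away in control and 17.7 kb in detrained mice, in a peak of Gss with densities of 81.7, 85.0, 92.9 and 92.0 in C2, C3, Ex1 and Ex2. The slow myosin genes had no listed acetylation of their own, while these neighbours had strong peaks in all 4 libraries.

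The slow troponins had 1 peak each or none, and none of them over a start site. Tnnc1, the calcium sensor, had no peak under its name, and its start lay 505 bp from the end of a control peak and 485 bp from the end of a detrained peak, both listed under Nisch. The Nisch peak measured 70.9 and 68.5 tags per kb per 10000000 tags in the control libraries against 73.8 and 70.9 in the detrained ones. A peak at such a distance counts for the gene whose start is nearest to its centre, and the lists therefore give Tnnc1 nothing although a strong peak ended upstream of it.

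Tnni1, the inhibitory subunit, had 1 peak (chr1:135793415-135795755 on mm10, intergenic in the authors' annotation), centred 4.84 kb upstream of its start, in the control list only. The RefSeq gene record reaches further upstream than the curated starts and includes this peak. Its density was 21.8 in C2 and 25.8 in C3, against 4.51 in the control input, which placed it at percentile 40.8 of the control list. No detrained peak overlapped it, and the nearest detrained edge to the upstream Tnni1 start lay 19.5 kb away, under Phlda3. Tnnt1, the subunit that binds tropomyosin, showed the opposite pattern, with 1 peak in an intron (chr7:4511205-4512525), centred 4.11 kb inside the gene, in the detrained list only. There the density was 25.9 in Ex1 and 32.5 in Ex2, against 7.13 in the detrained input. A further peak, listed under Ppp1r12c, overlapped the last 1070 bp of the Tnnt1 gene body in the control list and the last 1009 bp in the other. Peaks found in a single list were common, at 27.9% of control peaks and 18% of detrained peaks, and among the members they numbered 2 of 14 in each list. The deposited values give no level of a region in the list that lacks it, so whether Tnni1 and Tnnt1 differed between the groups could not be measured.

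The ventricular and slow light chains had 1 weak or middling peak each in both lists, away from the start site. Myl2, the regulatory light chain, had an intergenic peak (chr5:122084855-122086400 in control, chr5:122084424-122086091 in detrained mice), centred 15.3 and 15.7 kb upstream of the start to which the lists assign it. That start gives a protein of 166 residues and lay 14.6 kb from the peak edge in control and 14.9 kb in detrained mice. Other curated Myl2 starts, which give 147 residues, lay closer, the nearest at 6.32 kb from the edge in control and 6.63 kb in detrained mice. The Myl2 density was 32.2, 24.6, 28.4 and 29.8 in C2, C3, Ex1 and Ex2, so both detrained libraries lay between the control libraries. Myl3, the essential light chain, had a peak in intron 1 (chr9:110764913-110766162 in control, chr9:110763841-110766216 in detrained mice), whose edge lay 1235 bp past the start in the control list and 163 bp past it in the other. The Myl3 density was 19.2, 20.3, 14.8 and 16.04, the lowest when each gene with a peak in both lists is taken by its strongest peak. The detrained Myl3 peak was also longer, at 2375 against 1249 bp.

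**Figure D1:**
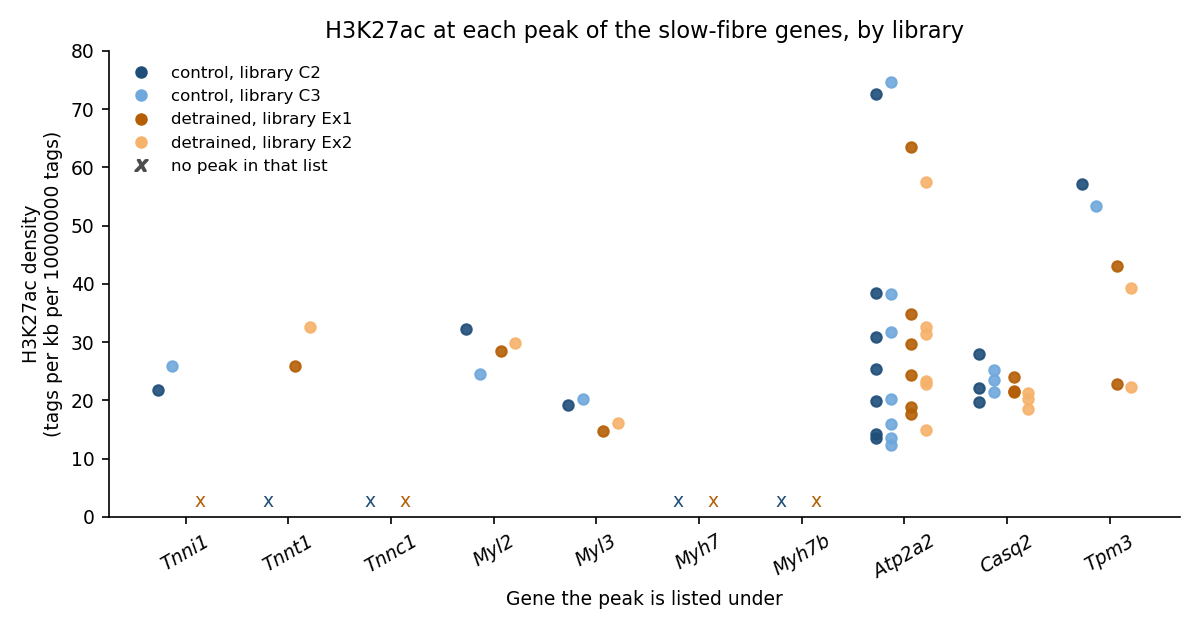
H3K27ac density (tags per kb of peak per 10000000 tags) of every peak listed under a slow-fibre gene, 1 point per peak and library; an x marks a list without a peak of that gene. The start-site peaks of Atp2a2 and Tpm3 stand above all others, and Myh7, Myh7b and Tnnc1 have no point.

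The calcium pump Atp2a2 held more peaks than any other member, and its start-site peak was the densest of the set. It had 7 peaks in control and 6 in detrained mice, reaching 49.2 and 48.1 kb upstream, with 531 and 552 pooled tags per 10000000 over 14779 and 16708 bp. The start-site peak (chr5:122501278-122503178 in control, chr5:122500431-122503533 in detrained mice) had a density of 72.5 and 74.7 in the control libraries against 63.4 and 57.5 in the detrained ones. It stood at percentile 91.0 of the control list and 83.8 of the detrained list. The longest Atp2a2 peak, 5941 bp long in control mice and 6698 bp in the detrained, was centred 25.4 and 25.1 kb upstream in intergenic sequence and measured 38.4, 38.3, 29.7 and 32.5. The farthest peaks lay in an intron or a 3′ UTR of another gene, so their listing under Atp2a2 is by distance alone. A further detrained peak inside an Atp2a2 intron, listed under Anapc7, held 9.30 tags per kb, close to the lowest density in that list of 8.41.

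Casq2, which stores calcium in the reticulum of slow fibre and heart, had 3 peaks within its own introns and over its start. The peak over the start (chr3:102085180-102088690 in control, chr3:102085237-102088559 in detrained mice) measured 22.04, 21.5, 21.7 and 21.2 tags per kb per 10000000 tags in C2, C3, Ex1 and Ex2. These 4 values were the closest of any shared member peak, with a detrained to control ratio of 0.984. The other Casq2 peaks were centred 9.62 and 13.8 kb past the start in control mice and 9.46 and 13.4 kb past it in detrained mice. Their densities were 19.7 to 27.9 in the control and 18.5 to 24.1 in the detrained libraries.

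Tpm3 carried its acetylation at an internal start and not at the start of the muscle-length transcript. The curated transcripts from the upstream start encode 285 residues, the length of the sarcomeric tropomyosins, and those from the internal start encode 247 or 248 residues, the length of the short, mostly non-muscle forms. The internal start lay inside the strong Tpm3 peak of both lists (chr3:90078915-90081259 in control, chr3:90079199-90082968 in detrained mice), which measured 57.1, 53.4, 43.1 and 39.2 in C2, C3, Ex1 and Ex2. The upstream start lay 6.26 kb from the nearest peak edge in control and 6.55 kb in detrained mice. A weak intronic peak centred 5.61 kb past the internal start was listed in detrained mice only, at 22.7 and 22.3 in Ex1 and Ex2.

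**Figure D2:**
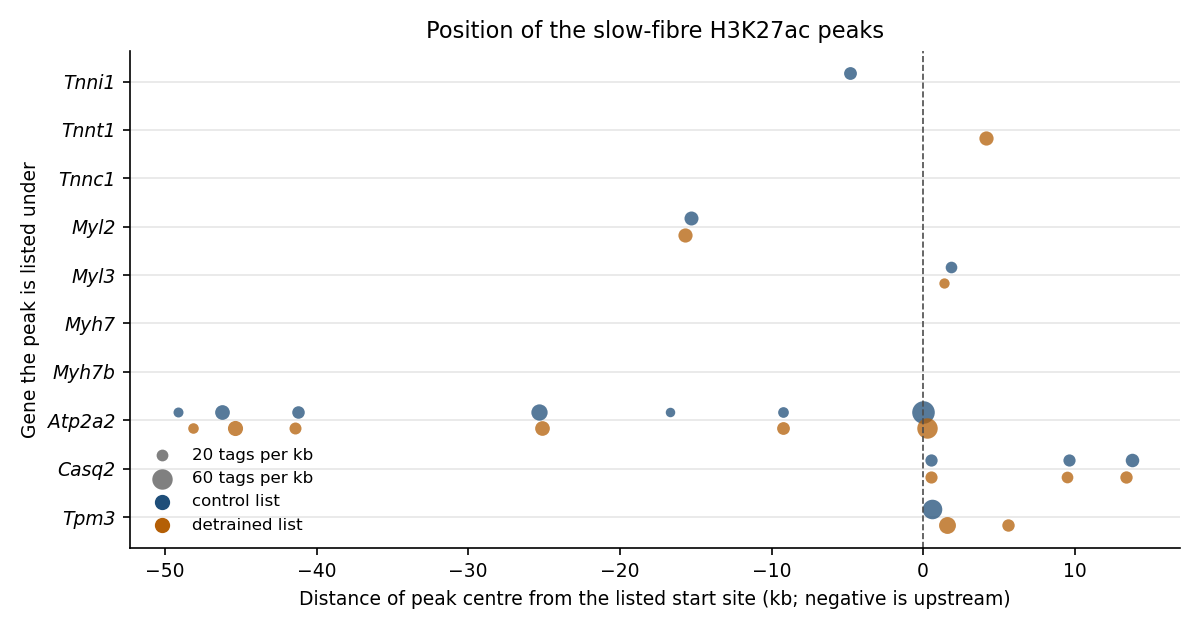
Distance of each peak's centre from the start site it is listed under (kb, negative is upstream), with the area of a point in proportion to pooled tags per kb. Peaks within 1 kb of a start belong to Atp2a2, Casq2 and Tpm3, and Atp2a2 has a chain of peaks reaching 49.2 kb upstream.

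Ranked by the strongest peak of each gene, Atp2a2 and Tpm3 led both lists. In control mice the density was 73.6 ± 1.52 (mean ± SD, n = 2 libraries) at Atp2a2, 55.3 ± 2.63 at Tpm3, 28.4 ± 5.40 at Myl2, 26.6 ± 1.90 at Casq2, 23.8 ± 2.84 at Tnni1 and 19.7 ± 0.782 at Myl3. In this order Myl2 overlapped Casq2 and Casq2 overlapped Tnni1 between libraries, and the other neighbours did not overlap. In detrained mice it was 60.5 ± 4.17 at Atp2a2, 41.1 ± 2.75 at Tpm3, 29.2 ± 4.66 at Tnnt1, 29.1 ± 0.989 at Myl2, 22.1 ± 2.75 at Casq2 and 15.4 ± 0.909 at Myl3, and only Tnnt1 and Myl2 overlapped. Both leading genes are also used outside slow muscle, Atp2a2 as a pump of most cells and Tpm3 through its short forms. Most member peaks were modest for their list: 5 of 14 in control and 4 of 14 in detrained mice exceeded the median density of all peaks (27.5 and 30.1 tags per kb). Above input, the member peaks had a median log2 value of 2.16 in control and 2.08 in detrained mice, against 2.25 and 2.20 for all peaks. The highest was the Tpm3 start-site peak, at 3.13 and 2.87.

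The 12 genes of the fast fibre, all but Pvalb of the same protein families, carried far more H3K27ac in the same libraries. Under their own names, 11 of 12 fast genes had 30 peaks in each list, with 11553 pooled tags per 10000000 over 152122 bp in control and 11391 over 151150 bp in detrained mice. The members held 936 tags over 29089 bp in control and 1027.5 over 35208 bp in detrained mice. Per length this was 75.9 and 75.4 tags per kb for the fast genes, or 79.3 and 79.6 without Pvalb, against 32.2 and 29.2 for the slow genes.

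Within families, the strongest peak of the slow gene was less dense than that of the fast gene in every library with both values, in 6 of 6 pairs. The median log2 difference, slow minus fast, was -1.77. The gap was widest between the essential light chains, where Myl1 exceeded Myl3 by 6.54-fold, at 105, 149, 109 and 99.1 tags per kb in C2, C3, Ex1 and Ex2. Casq1 exceeded Casq2 by 4.51-fold and Mylpf exceeded Myl2 by 3.10-fold, each as a mean over all 4 libraries. Tnni2 exceeded Tnni1 by 3.76-fold in the control libraries, at 81.9 and 97.3. The gap was narrowest for Atp2a2 and Tpm3, at 1.81-fold and 1.89-fold. This order is by the strongest peak. By the peak nearest the start, Casq1 over Casq2 was widest, at 5.05-fold. In summed tags Tpm1 exceeded Tpm3 by 12.9-fold and Casq1 exceeded Casq2 by 5.73-fold.

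Library C3 was higher than C2 at 29 of 30 fast peaks of the control list, by a median log2 of 0.30, and at 6 of 14 member peaks, with a median of -0.02. Over all control peaks it was higher at 56.9%, with a median of 0.05. The slow to fast gap of a control library thus moved with the library, over the same 5 pairs with values in all 4 libraries, from a median log2 difference of -1.39 in C2 to -2.11 in C3. Those of Ex1 and Ex2, at -1.53 and -1.50, lay between the control libraries. For Atp2a2 against Atp2a1 the difference was -0.56 in control and -1.14 in detrained mice, and for Tpm3 against Tpm1 -0.49 and -1.34. It moved less for the other 3 pairs, from -2.66 to -2.76 for Myl3 against Myl1 and from -2.12 to -2.23 for Casq2 against Casq1, and for Myl2 against Mylpf it narrowed, from -1.75 to -1.51. The fast peaks of the first 2 pairs were longer in control than in detrained mice, at 15521 against 12790 bp for Atp2a1 and 22791 against 9964 bp for Tpm1. The part of these lengths in the differences was not tested.

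Gene names hid some fast peaks from this count. Tnnt3 had no peak of its own name because its start lay in a long peak (32854 bp in control, 33744 bp in detrained mice) listed under Lsp1, with 83.1, 94.6, 86.3 and 86.5 tags per kb in C2, C3, Ex1 and Ex2. The Myh4 start lay in a peak listed under Myhas in control and under Myh4 in detrained mice, with 61.3, 79.2, 79.3 and 76.7 tags per kb. Taking the fast gene by its start-site peak, whatever the name, the slow gene was lower in 7 of 7 pairs. Among the myosin heavy chains, Myh2, used in the oxidative class of fast fibres, was the single fast gene without a start in a peak. The strongest Myh2 peak, 7.06 kb upstream in control and 7.07 kb in detrained mice, measured 36.8, 39.3, 33.3 and 36.1 tags per kb, above the light chain and troponin members and below Myh4 and Myh1 in each library.

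**Figure D3:**
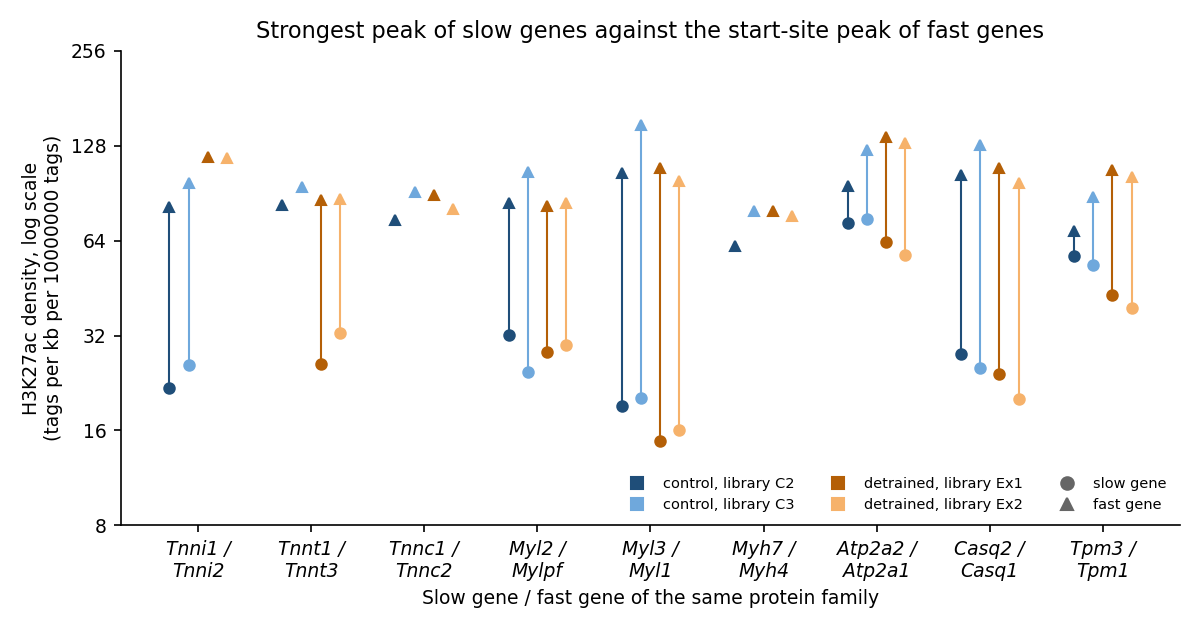
H3K27ac density on a log scale of the strongest peak of each slow gene (circles) and of the start-site peak of its fast relative (triangles), joined within a library. Circles lie below triangles in every library where both exist, by the least at Atp2a2 and Tpm3; Tnnc1 and Myh7 have no circle.

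Between detrained and control mice, the slow-fibre peaks showed few differences that kept their direction when measured per length, per peak and above input. A control and a detrained peak that covered at least 50% of each other one to one were treated as shared, which held for 9 member peaks. The lists were normalized separately and no test between groups was made; 2 libraries against 2 could not reach a two-sided p below 0.333 in an exact permutation test. Instead, a peak was counted as lower or higher when the pair of detrained libraries fell wholly below or wholly above the pair of control libraries. The per-library values are shrunken by the authors' transformation, which understates the spread within a group. Per kb, 4 of the 9 were lower and 1 was higher, against 27.2% lower and 21.3% higher among all 26432 shared peaks. Leaving out C3 raised the lower count to 7 of 9, and leaving out C2 raised the higher count to 2. With a library left out these counts can only stay or rise, and no share of all shared peaks is given for that setting. With all 4 libraries none was also at least 1.5-fold apart, which held for 2.06% of shared peaks in the lower and 1.1% in the higher direction. Without C2, 1 of the higher peaks was that far apart, as was 1 counted in tags per peak, and above input 1 of the lower was. The median log2 ratio of detrained to control density was -0.13 for the members and -0.03 for all shared peaks. The members' median was -0.26 to -0.21 with any 1 library left out, against -0.06 to 0.01 for all shared peaks. In tags per peak the members' median was 0.26, against -0.02 for all shared peaks.

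The 4 lower peaks included the 3 densest of the 9 and belonged to Tpm3, Myl3 and Atp2a2. At the Tpm3 start the ratio was 0.744, a log2 difference of -0.43 with an SD of 0.08 between libraries of a group. At Myl3 the ratio was 0.780 (log2 -0.36, SD 0.07), at the distal Atp2a2 peak of 25.4 kb 0.811 (log2 -0.30, SD 0.06) and at the Atp2a2 start 0.821 (log2 -0.29, SD 0.07). The higher peak was the Atp2a2 peak 9.25 kb upstream, with a density of 19.9, 13.6, 24.4 and 23.3 in C2, C3, Ex1 and Ex2, a ratio of 1.45 (log2 0.53, SD 0.28). At both shared Casq2 peaks, Myl2 and the Atp2a2 peak 41.2 kb upstream, the libraries of the groups overlapped.

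Peak length moved with these ratios. The detrained peak was the longer one at 8 of the 9 member peaks, by a median log2 of 0.23, whereas 51.6% of all shared peaks were longer in detrained mice. Counted as tags per peak, without division by length, the Tpm3, Myl3 and Atp2a2 start-site peaks turned from lower to higher, with pooled tags of 154.6 against 129.4, 36.4 against 24.4 and 187 against 139.6 per 10000000. On that scale 2 of the 9 peaks were lower and 5 were higher, against 28.8% and 24.7% of all shared peaks. The Atp2a2 peak 9.25 kb upstream was higher and that at 25.4 kb lower on both scales, at log2 ratios of pooled tags of 0.62 and -0.13. Input density at the higher peak was 3.60 in control and 5.90 in detrained mice, and its log2 level above input was 2.45 and 1.90 in the control libraries against 2.03 and 1.97 in the detrained ones, so above input the groups overlapped.

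Set against the input of their own group, 3 of the 9 peaks were lower and 2 were higher, against 38.6% and 22.2% of all shared peaks. At the Atp2a2 start, input density was 12.2 in control and 8.53 in detrained mice, and the log2 level above input turned to higher, at 2.57, 2.61, 2.89 and 2.75 in C2, C3, Ex1 and Ex2. The other 3 peaks that were lower per kb stayed lower above input, with 3.18, 3.08, 2.94 and 2.81 at Tpm3, 2.62, 2.70, 1.81 and 1.93 at Myl3, and 3.009, 3.003, 2.62 and 2.75 at the Atp2a2 peak of 25.4 kb. Only this last peak of the 9 was lower per kb, per peak and above input, and none was higher on all 3 scales. At the Casq2 start, where densities overlapped, the level above input was 2.09 and 2.06 in control against 2.23 and 2.19 in detrained libraries.

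**Figure D4:**
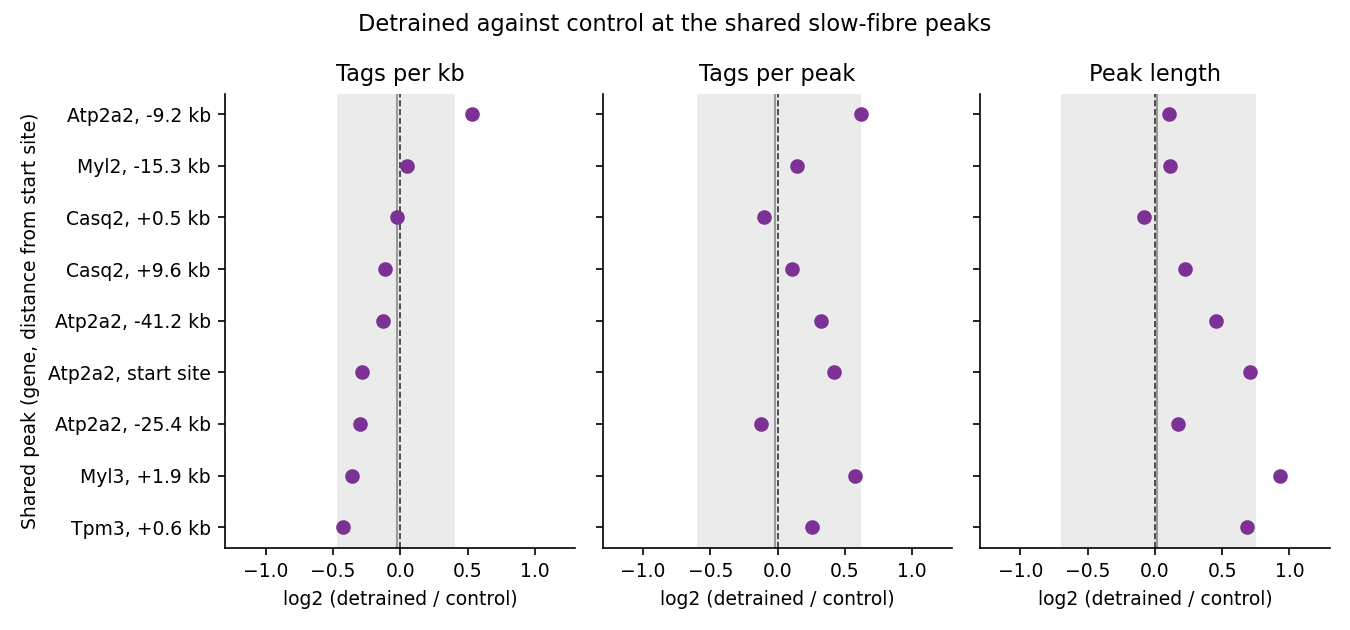
Log2 ratio of detrained to control for the 9 shared member peaks in tags per kb, tags per peak and peak length; the grey band holds the central 90% of all 26432 shared peaks and the grey line their median. Start-site peaks of Atp2a2 and Tpm3 and the Myl3 peak lie left of 0 per kb and right of 0 per peak, and all 3 are longer in detrained mice.

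Summed over all peaks of a gene, the pooled tags per 10000000 were higher in both detrained libraries than in both control libraries for 4 of the 5 members with a peak in both lists and lower for 0. Of all 13524 genes with a peak in both lists, 24.3% were higher and 35.2% lower in this way. Tpm3 had 134 and 125 in the control libraries against 181 and 166 in the detrained ones, over 2344 bp of control and 4601 bp of detrained peak. Casq2 had 150, 154, 189 and 170 over 6832 and 8537 bp, and Myl3 23.7, 25.1, 34.8 and 37.9 over 1249 and 2375 bp. Sums move with how much of a gene was called, and per kb of listed peak the pooled values were lower in detrained mice for each of these 3: 55.2 and 37.6 at Tpm3, 22.3 and 21.01 at Casq2 and 19.5 and 15.3 at Myl3. Atp2a2, the fourth, had 535, 527, 554 and 550 tags per 10000000 in C2, C3, Ex1 and Ex2, and per kb it too was lower in detrained mice, at 33.0 against 35.9.

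Most of the companion genes chosen for the slow programme had listed peaks. The share of all genes with a listed peak is not given, so this count and that of the regulators are descriptions only. Of 10 companion genes (Myoz2, Csrp3, Ankrd2, Pln, Sln, Mb, Smpx, Actn2, Tpm2 and Myh6), 9 had a peak in each list, with 48 peaks in control and 42 in detrained mice; the exception was Myh6, the heart myosin next to Myh7. Of their 21 shared peaks, 3 were lower and 5 were higher per kb in detrained mice, beside the 27.2% and 21.3% of all shared peaks given above, and 1 of the lower was at least 1.5-fold apart. That peak, 25.1 kb upstream of Smpx, measured 30.1, 26.7, 20.1 and 13.6 tags per kb in C2, C3, Ex1 and Ex2. Input density there was 7.36 in control and 3.40 in detrained mice, and above input the groups overlapped. The next lowest ratio was at a peak 4.09 kb upstream of Pln, phospholamban, which restrains the Atp2a2 pump, with 37.2, 36.9, 27.9 and 31.3, but at a log2 ratio of 0.08 in pooled tags per peak. Above input it stayed lower, at 2.41, 2.40, 1.91 and 2.07. The highest ratios were at 2 peaks of Actn2, the Z-disc protein alpha-actinin 2: 36.6, 45.3, 59.8 and 45.4 near its start, where C3 and Ex2 were nearly equal and the groups overlapped above input, and 22.6, 15.9, 25.8 and 21.99 at 20.9 kb upstream, where the groups overlapped per kb. Above input the Actn2 peak at 20.9 kb was higher, at 2.13, 1.61, 2.64 and 2.41.

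Regulators of fibre type had many more peaks than the members, 171 in control and 132 in detrained mice. All 13 (Sox6, Prox1, Vgll2, Nfatc1, Tead1, Mef2c, Mef2d, Ppargc1a, Ppard, Esrrg, Esrrb, Hdac4 and Ppp3ca) had a peak in control mice and 12, all but Prox1, in detrained mice. The median strongest peak of a regulator held 73.2 tags per kb in control and 83.8 in detrained mice, against 27.3 and 29.1 for the members with a peak. A strongest peak is picked from more peaks in a regulator than in a member. Over all their peaks the median was 24.1 in control and 30.7 in detrained mice for the regulators, against 23.2 and 22.9 for the members. Of 76 shared peaks, 13 were lower and 12 were higher per kb, beside 27.2% and 21.3% overall. A difference of 1.5-fold or more was seen at 2 of the lower and 1 of the higher, beside 2.06% and 1.1% overall. A peak of Hdac4 165 kb past its start measured 61.4, 70.5, 44.1 and 38.2 tags per kb in C2, C3, Ex1 and Ex2. It was 4249 bp long in control mice and 7060 bp in the detrained, and its pooled tags per peak had a log2 ratio of 0.05. Its input density was 10.3 and 5.54, and above input it turned to higher, at 2.578, 2.778, 2.992 and 2.784, with C3 and Ex2 nearly equal. The lower value thus held per kb only. A peak of Sox6, a repressor of slow genes, 1.10 kb upstream measured 38.9, 48.6, 27.5 and 30.1, and it was also lower per peak (log2 -0.46) and above input, at 3.01, 3.33, 2.12 and 2.25.

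In the higher direction, a peak of Ppargc1a, a coactivator of mitochondrial genes, 27.9 kb upstream measured 21.2, 24.6, 43.4 and 34.7. Its input density was 4.02 in control and 11.9 in detrained mice, and its pooled tags per peak had a log2 ratio of 0.18. Above input the Ppargc1a peak turned to lower, at log2 levels of 2.38 and 2.60 in control against 1.85 and 1.53 in detrained libraries. A second Sox6 peak, 7.38 kb upstream, was higher per kb, at 18.0, 24.5, 30.7 and 31.0, and per peak, with pooled tags of 25.3 in control and 60 in detrained mice (log2 1.25). Its input density was 3.96 in control and 7.56 in detrained mice, and it was lower above input, at 2.17, 2.62, 2.01 and 2.03.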

How the data were processed

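H3K27ac ChIP-seq of quadriceps was read from 2 deposited peak lists, 1 per group. Per the labels and the study's methods, the authors cross-linked tissue with formaldehyde, aligned single-end reads to mm10 with Bowtie (version 1.2 in the submitters' processing notes), kept 1 tag per position in HOMER, called peaks on both libraries of a group against its input, and annotated each peak to the nearest start site. The deposited values were, per library, a regularized log2 tag count made by the authors with DESeq2 within HOMER, and per peak a pooled signal in tags per 10000000. Columns of fold and p-value per peak hold the authors' own comparisons with input and were not used. The lists name the control libraries C2 and C3, which match no numbered label and were therefore placed in the group without a number. Columns of no sample of the series numbered 0.

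Pooled tags of a peak were shared out between its libraries by library total and log2 value. Density was (tags + 0.5) per kb of peak per 10000000 tags. Differences between groups were not tested because the lists were normalized separately. Shared peaks covered at least 50% of each other one to one. Start sites and gene bodies came from RefSeq on GRCm38.p6, the assembly of mm10, with curated transcripts only. The members and the lists of fast, companion, regulator and marker genes were chosen with earlier results of these data known. A further gene of the regulator list is not reported here. The genes named were all members with every peak, the fast relatives by their strongest peak, and the 2 highest and 2 lowest ratios among companions and among regulators; other genes named nearest to a member were chosen after their values were seen. Alternatives covered normalization, input, peak length, overlap, pseudocount, threshold and each library left out in turn. Tag estimates and calls were tested on simulated data in which both groups had the same peak edges, so the matching of peaks was not covered. Depth was alike in the H3K27ac libraries, and the control input was shallower than the other libraries. Calculations ran in Python 3.11.15 (pandas 2.3.3, numpy 2.4.6), and figures in matplotlib 3.10.9.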

Additional observations from a re-analysis of the deposited data

How the results depend on the processing

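Single peaks changed direction when peak length was left out of the comparison and when levels were set against input. Counted as tags per peak, 2 shared member peaks were lower and 5 were higher in detrained mice, 1 of them at least 1.5-fold apart, and the median log2 ratio was 0.26. With overlapping peaks merged, only tags inside the peaks of each list could be summed, so no common span was measured. For the 9 shared peaks this repeated the values per peak. There were 11 shared regions, of which 3 were lower and 6 were higher, 2 of the higher at least 1.5-fold apart. Their median was 0.26, against -0.01 for all regions, and the shares of all regions are not given. Under both of these settings the peaks at Tpm3 (log2 0.26), at the Atp2a2 start (0.42) and at Myl3 (0.57) turned from lower to higher. At all 3 the detrained peak was the longer one, and the part of length in this was not tested. By log2 level above input, 3 peaks were lower, 1 of them (Myl3) at least 1.5-fold apart, and 2 were higher; the Atp2a2 start turned to 0.23 and the Atp2a2 peak 9.25 kb upstream to -0.17. Any one-to-one overlap gave a median of -0.20, against -0.02 for all shared peaks. Requiring 80% of each peak left 4 shared peaks, of which 1 was lower and 1 was higher, with a median of -0.07 against -0.02 for all. Leaving out each H3K27ac library in turn gave medians of -0.26 to -0.21, against -0.06 to 0.01 for all shared peaks. Counts were 5 to 7 lower peaks, 1 to 2 higher peaks and 0 to 1 higher peaks at least 1.5-fold apart. Without C3, 7 of the 9 peaks were lower. Without C2, 2 were higher and 1 of these, the Atp2a2 peak 9.25 kb upstream, was at least 1.5-fold apart. With a library left out the counts of separated peaks can only stay or rise, and the matching shares of all shared peaks are not given. Normalizing to tags in peaks, centring on all shared peaks, a pseudocount of 5, the authors' log2 values alone and a 2-fold limit kept each count of separated peaks within 1.5 times. Peaks with at least 30 pooled tags per 10000000 had a median log2 density of 4.82 in control and 4.67 in detrained mice, against 4.57 and 4.56 for all member peaks. Taking peaks that overlap the gene body in place of the listed name left 8 member peaks in control mice and 11 in detrained mice, of 6 and 5 members. Slow minus fast was -3.78 in summed tags, in which the fast genes have more and longer peaks. By the peak centred nearest a start, Tpm3 exceeded Tpm1 in the control libraries, where a short peak of 500 bp took the place of the broad one. The fast gene by its start-site peak and the level above input were alternatives chosen after seeing the data. No paired analysis was possible because library numbers in the control list match no numbered label. Each group has 2 libraries, which limits every comparison of groups, and depth does not set the level of a region absent from a list.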
